A study of Mus musculus with 3 samples.

Results

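Insertions and deletions (indels) in non-coding RNA (ncRNA) transcripts are described here in MB49, a mouse bladder cancer cell line, and in its derivatives with and without the Y chromosome. An indel was counted when a library's variant list placed it on chromosomes 1 to 19 in an exon, an intron or a splice site of a non-coding transcript. Entries of the 3 lists were matched on chromosome, position, reference and alternative allele. The union held 4993 such indels among 22791 on these chromosomes. Of these, 4260 were intronic, 731 were exonic (10 of them also at a splice site) and 2 were listed as splicing alone. A further 179 on chromosome X lay outside the rule, and 0 were on Y.

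Exome capture and paired-end sequencing of genomic DNA gave 1 library for each of 3 genotypes: parental MB49, a derived line labelled Y positive and a derived line labelled Y negative. All 3 were grown in DMEM with fetal bovine serum. How the derived lines were obtained, and whether each is 1 clone, was not given in the sources used here. With 1 library per genotype there is no replicate check, and every test below compares indels or reads of these libraries, not the genotypes. The sample descriptions MBN (on Y positive) and MBP (on Y negative) could be read the other way round. Indels on chromosome Y numbered 9 in the Y positive list, 4 in the parental list and 0 in the Y negative list. At 20 reads or more they numbered 6, 0 and 0, so the parental entries were all shallow.

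Non-coding RNAs are transcripts with no protein product. They include long intergenic and antisense RNAs, host transcripts of small RNAs, transcribed pseudogenes and spliced forms of protein-coding genes that carry no open reading frame. Like mRNAs, many are spliced, so that exons remain in the mature RNA and introns are removed. An indel in such an exon shifts no reading frame. Small indels arise most readily by slippage of the polymerase in runs of 1 base or in short tandem repeats. The annotation names transcripts, not genes: the 4993 indels cited 4467 Ensembl transcript identifiers, and they formed 2768 groups of indels linked by a shared transcript. Of these groups, 1995 held 1 indel. "Non-coding" therefore refers to the transcript, and the gene can be protein-coding.

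The sequences of a few indels show what the lists hold. Each is written on the forward strand from the base before the change, in lower case, with the inserted or deleted bases in capitals, and positions are those of mouse build mm9. The first set comprises 5 neighbours in introns of an indel-rich transcript group on chromosome 11. They are shown because their allele fractions stood in the same order across the libraries.

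chr11:3057703-3057703, insertion: cCCCTTTCAGGTT
chr11:3057717-3057717, deletion: cA
chr11:3057786-3057786, insertion: tG
chr11:3057826-3057832, deletion: aGGAGCCC
chr11:3057834-3057841, deletion: tGAGCGCGC

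The second set holds deep exonic indels that are homozygous in all 3 libraries, followed by the deepest exonic indel outside chromosome 11, which is heterozygous in all 3.

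chr8:97360279-97360280, deletion: cTA
chr8:99951936-99951936, insertion: gA
chr11:50805534-50805534, insertion: gCT
chr7:13053800-13053800, deletion: tC
chr8:12673087-12673088, deletion: gCC
chr5:15219755-15219763, deletion: tGATGTTCAA

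The third set gives the first 30 bases, anchor included, of the longest indels read 20 times or more in a library. All are intronic, and none is a tandem repeat of a unit of 1 to 4 bases.

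chr11:3037138-3037138, 86-base insertion: aGTACAGGATTTTCATTCATAAGTGACTTT
chr8:13144612-13144695, 84-base deletion: tCGGGGTGAGTGCTGTGGACACAGCTCGGT
chr10:115663421-115663421, 74-base insertion: cTCCGTCTTGGTATTCTAAGCACTAGGTGT
chr2:69587159-69587159, 43-base insertion: gAAAATCAAAGGAGCCCAGTTAGAGTAAAA
chr8:13098484-13098523, 40-base deletion: gCAGCTGTGTGTTACATGCATGCAGCTGTG

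Exonic indels were read more deeply than intronic ones. The Y negative list held 2781 ncRNA indels, the parental list 2699 and the Y positive list 2499. Median depth was 22, 24.5 and 25 reads for exonic indels and 12, 14 and 10 reads for intronic ones, in parental, Y positive and Y negative respectively. Entries with fewer than 5 reads made up 16.7% of exonic and 32.9% of intronic indels in parental (two-sided Fisher exact test, adjusted exact p = 5.35e-12). In Y positive they made up 10.7% and 25.8% (adjusted exact p = 1.36e-12), and in Y negative 13.6% and 36.2% (adjusted exact p = 4.68e-22). All adjusted p-values on shares are Benjamini-Hochberg values over 29 Fisher tests, of which 6 passed 0.05. These tests take indels as independent. Indels near each other can share reads or a haplotype: 27.1% of exonic and 21.1% of intronic indels lay within 150 bases of another ncRNA indel.

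Because of that gap, types and sizes were compared among the 1659 indels that reached 20 reads in any library: 375 exonic, 1282 intronic and 2 splicing. Deletions outnumbered insertions in both classes, less so in exons. They were 259 of 375 exonic indels, or 69.1% (exact binomial 95% interval 64.1 to 73.7), and 1012 of 1282 intronic ones, or 78.9% (76.6 to 81.1). The difference was -9.87 percentage points (95% interval -15.2 to -4.84, adjusted exact p = 0.000712). Without a depth minimum it was -3.54 points and did not pass (adjusted exact p = 0.0574).

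**Figure D1:**
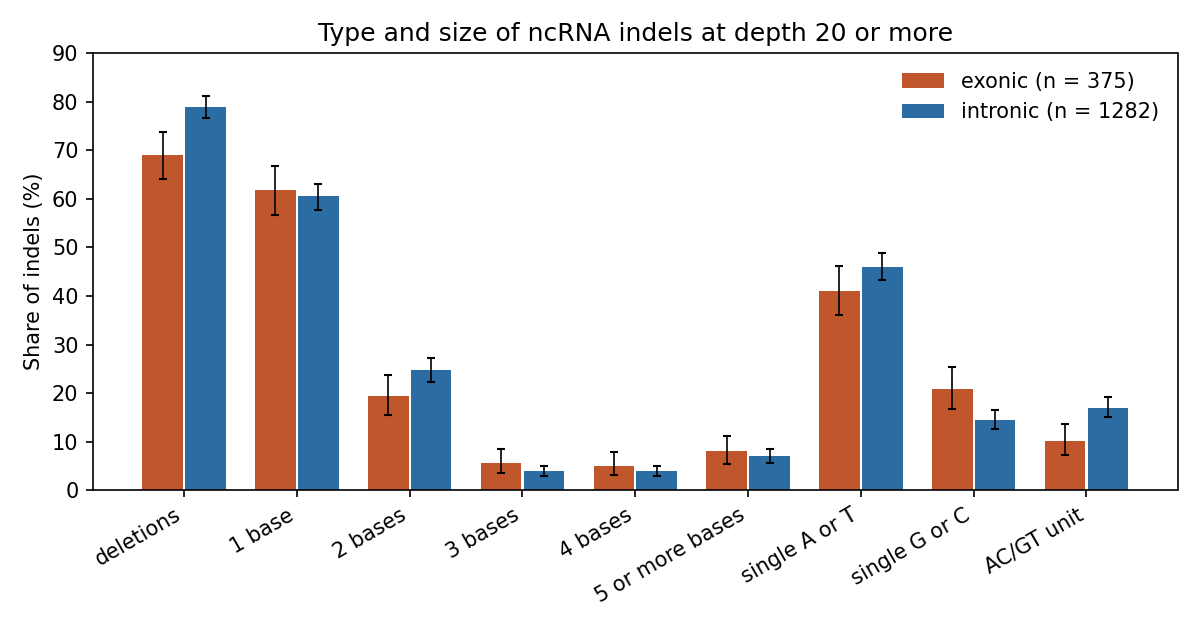
Share of ncRNA indels (percent, y axis) of each type, size and repeat unit (x axis) among exonic (n = 375) and intronic (n = 1282) indels with at least 20 reads in a library; bars are shares and lines exact 95% binomial intervals. Both classes are mostly single-base changes, 61.9% and 60.5%, and deletions are 69.1% of exonic and 78.9% of intronic indels.

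Sizes did not differ past the threshold at 20 reads with every indel counted. Single-base changes were 61.9% of exonic and 60.5% of intronic indels, a difference of 1.41 points (95% interval -4.25 to 6.90, adjusted exact p = 0.751). Indels of 5 or more bases were 8.0% and 7.02%, a difference of 0.98 points (-1.82 to 4.42, adjusted exact p = 0.658). Without a depth minimum, single-base changes were more frequent in exons by 13.6 points (adjusted exact p = 3.58e-11). The median size was 1 base for deletions and for insertions in each class. The largest was 30 bases in exons and 86 bases in introns. Keeping 1 indel per transcript group, which was decided after seeing the data, set indels of 5 or more bases at 6.62% of exonic and 2.73% of intronic ones (adjusted exact p = 0.0143).

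Most single-base changes gained or lost an A or a T, whose runs are common slippage sites. A single A or T was gained or lost in 41.1% of exonic and 46.0% of intronic indels (difference -4.96 points, 95% interval -10.5 to 0.773, adjusted exact p = 0.219). This difference passed at 30 reads, at -9.55 points (adjusted exact p = 0.0197), and passed the other way round without a minimum, at 6.74 points (adjusted exact p = 0.000687). A single G or C was gained or lost in 20.8% of exonic (95% interval 16.8 to 25.3) and 14.4% of intronic indels (12.6 to 16.5). Dinucleotide AC or GT units, a common microsatellite unit of the mouse genome, made up 10.1% of exonic (7.27 to 13.6) and 17.0% of intronic indels (15.0 to 19.2). These last 2 differences were not tested. Set beside indels in 3' untranslated regions of mRNAs, exonic sequence that is likewise outside a reading frame, exonic ncRNA indels were less often a single A or T: 41.1% against 55.2% of 212 (difference -14.1 points, 95% interval -22.3 to -5.71, adjusted exact p = 0.00617). The other 6 shares compared with these regions did not pass, and neither did any of 7 shares compared between ncRNA introns and other introns. Deletions were 78.9% of indels in ncRNA introns and 80.5% of 3161 in other introns (difference -1.60 points, -4.28 to 0.965, adjusted exact p = 0.416). These intron comparisons depended on the depth minimum. Without one, 6 of the 7 passed: deletions, single-base changes, single A or T and the homozygous share of each library (adjusted exact p = 0.00256, 0.0215, 0.00387, 4.93e-05, 9.93e-05 and 0.000705). At 30 reads the homozygous shares of parental and Y negative passed (adjusted exact p = 0.00564 and 0.0031), as did that of Y negative with genotypes taken from the reads (adjusted exact p = 0.0059).

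Exonic indels were listed in all 3 libraries more often than intronic ones. At the 20-read minimum 213 of 375 exonic indels (56.8%, 95% interval 51.6 to 61.9) and 617 of 1282 intronic indels (48.1%, 45.4 to 50.9) were in all 3 lists. The difference was 8.67 points (2.92 to 14.3, adjusted exact p = 0.0161). In 3' untranslated regions 52.8% of 212 indels were in all 3 lists, and in other introns 45.9% of 3161. The matching ncRNA class did not differ past the threshold from either (adjusted exact p = 0.541 and 0.356). Among ncRNA indels, those in 1 list alone were 28.3% of exonic and 33.6% of intronic ones (difference -5.35 points, -10.4 to 0.0397, adjusted exact p = 0.164). This difference passed at 10 reads (-6.87 points, adjusted exact p = 0.0224) and without a minimum (-19.2 points, adjusted exact p = 1.99e-21). A list gives no reads for an indel it leaves out, and such an indel may still be present in that line.

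Sharing was higher in deeper indels. Part of this is built into the binning, since an indel in 3 lists takes the highest of 3 depths and a private one has a single depth. Where the highest depth in any library was below 5 reads, 4.62% of 130 exonic and 0.997% of 1805 intronic indels were in all 3 lists. At 5 to 19 reads the shares were 24.8% and 21.7%. At 20 to 49 reads they were 49% and 38.7%, and at 50 reads or more 65.0% (95% interval 57.6 to 71.9) and 63.4% (59.0 to 67.7). At the highest depth the exonic interval thus contained the intronic one. Above the 20-read minimum, 183 of 375 exonic and 487 of 1282 intronic indels had 50 reads or more. Depth thus moved with the class, and its part in the difference of 8.67 points was not tested.

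**Figure D2:**
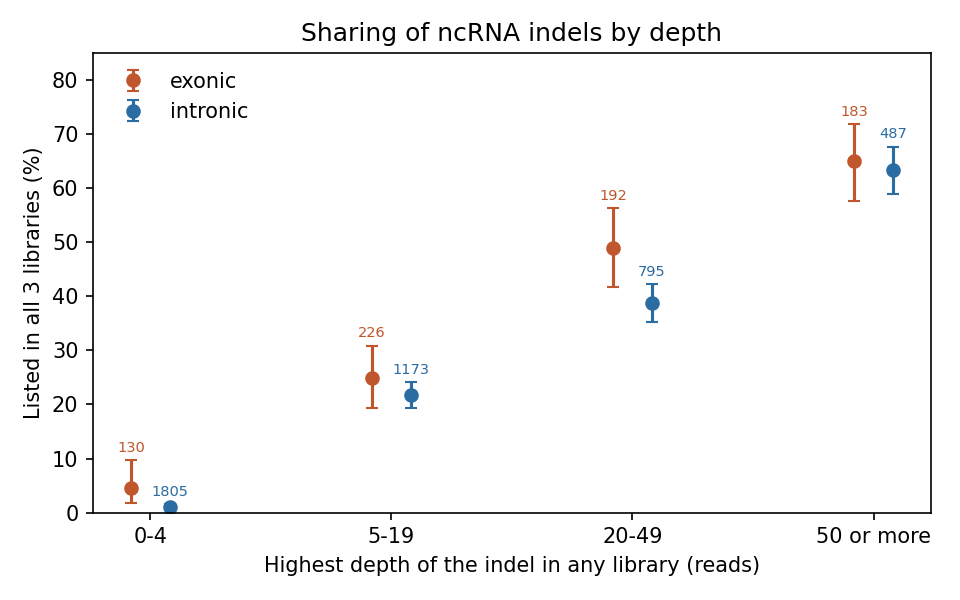
Share of ncRNA indels listed in all 3 libraries (percent, y axis) by the highest depth of the indel in any library (reads, x axis), for exonic and intronic indels; points are shares, lines exact 95% binomial intervals and the numerals over them the number of indels. The share climbs from 4.62% and 0.997% below 5 reads to 65.0% and 63.4% at 50 reads or more.

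The share of a list that was ncRNA was close in the 3 libraries. At 20 reads or more, ncRNA indels were 28.2% of parental entries, 27.6% of Y positive entries and 27.3% of Y negative entries. None of the 3 pairs passed: differences lay between -0.943 and -0.309 points, with 95% intervals within -2.91 to 1.64 (adjusted exact p = 0.541 to 0.791). Many of the same indels stand in both lists of a pair, but the test and the interval take the lists as independent. They therefore do not measure the spread of these differences. Without a depth minimum Y negative minus Y positive passed at -1.96 points (adjusted exact p = 0.00161). Y positive minus parental then turned to 1.21 points and did not pass (adjusted exact p = 0.0568). Pairs of lists overlapped to a like degree: the shared indels as a fraction of those in either list were 0.705 for exonic indels of Y negative and Y positive, 0.663 for Y positive and parental, and 0.678 for Y negative and parental. For intronic indels they were 0.599, 0.625 and 0.608. Y negative had 181 ncRNA indels found in no other list, parental had 180 and Y positive had 176. Overlaps and private counts over all listed indels are not given here, so these values show nothing particular to ncRNA.

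Genotypes, as the authors' caller gave them, were mostly heterozygous. In entries with at least 20 reads, homozygous indels were 35.2% of exonic and 30.2% of intronic ones in parental (difference 5.06 points, 95% interval -1.30 to 11.7, adjusted exact p = 0.266). They were 31.8% and 30.3% in Y positive (1.53 points, -4.67 to 8.09, adjusted exact p = 0.751) and 32.4% and 29.5% in Y negative (2.93 points, -3.38 to 9.61, adjusted exact p = 0.541). Entries with 2 alternative alleles were 3.79% to 5.08% of each class and library. The homozygous comparison depended on how clustered indels were counted. With 1 indel per transcript group, homozygous ones in Y positive were 32.1% against 19.1%, in Y negative 33.3% against 20.7% and in parental 36.4% against 19.2% (adjusted exact p = 0.00146, 0.00361 and 3.68e-05). With no depth minimum the differences were -7.34, -9.86 and -7.38 points, the other way round, and all 3 passed. With a minimum of 30 reads they were -1.68, -0.406 and -0.514 points and did not pass.

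Most homozygous indels were shared. Of homozygous exonic entries, 96.4% in Y positive, 95.2% in Y negative and 93.5% in parental were in all 3 lists. The intronic shares were 96.1%, 97.1% and 97.3%. Heterozygous entries were in all 3 lists in 61.8%, 61.9% and 64.2% of exonic and 55.9%, 55.2% and 54.3% of intronic cases, in the same order. Heterozygous indels in 1 list alone had low allele fractions, the alternative reads over all allele reads. Their medians lay between 0.25 and 0.318, against 0.445 to 0.496 for heterozygous indels in all 3 lists.

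Allele fractions formed a broad group below 0.6 and a narrow one near 1 in both classes. Over entries with 1 alternative allele and at least 20 reads, the exonic median was 0.607 in the parental library (n = 251), 0.553 in the Y positive one (n = 254) and 0.560 in the Y negative one (n = 243). The intronic median was 0.540 (n = 826), 0.550 (n = 819) and 0.540 (n = 783). Among heterozygous entries the medians were 0.388, 0.374 and 0.375 in exons and 0.409, 0.420 and 0.385 in introns, all below the 0.5 of a site with equal alleles. Heterozygous indels below 0.25 were 23.3%, 21.2% and 22.5% of the exonic ones and 13.7%, 12% and 13.3% of the intronic ones. The exonic ones below 0.25 had median depths of 78, 72.5 and 99 reads, against 52, 40 and 49 for the other heterozygous exonic entries. In ncRNA introns these medians were 49, 48 and 62.5 against 37, 38 and 38 reads. Low-fraction entries were also the deeper ones in other introns and in 3' untranslated regions, in each library. The difference between exonic and intronic ncRNA indels in the share below 0.25 was not tested. The deepest exonic example was the 9-base deletion at chr5:15219755-15219763. It had 258 of 1260 reads in the parental library, 256 of 1274 in Y positive and 238 of 1234 in Y negative. Its fraction stood at 0.205, 0.201 and 0.193, alike in all 3; this indel was picked after its values were seen.

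**Figure D3:**
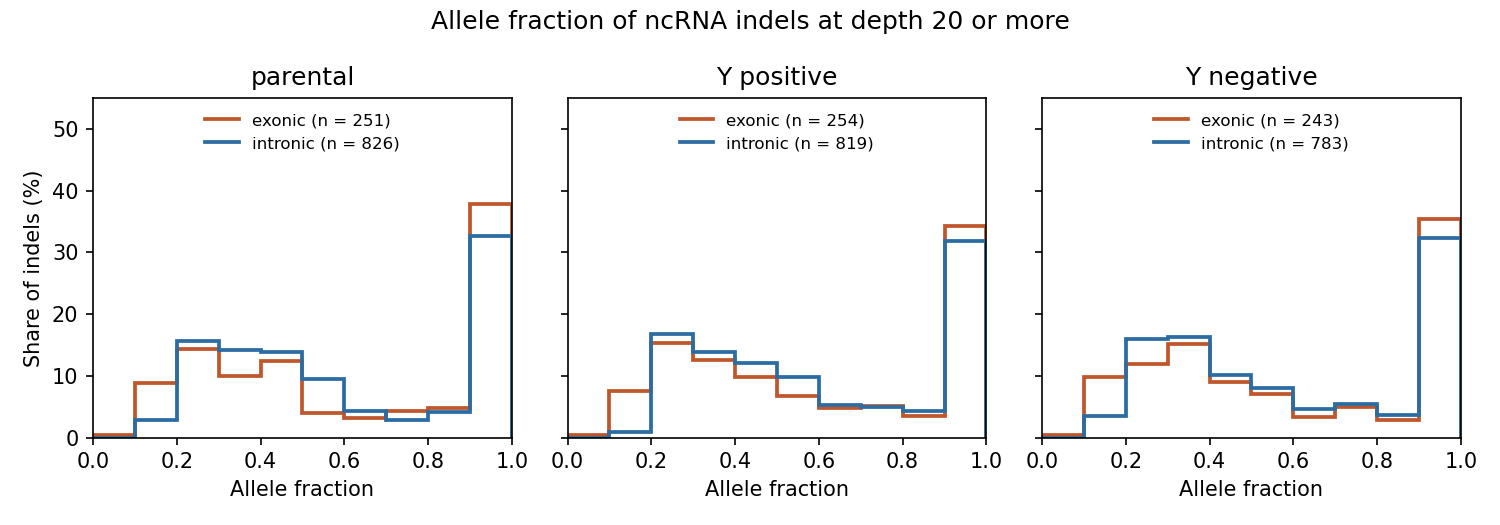
Allele fraction (x axis, bins of 0.1) of ncRNA indels with 1 alternative allele and at least 20 reads, as the share of exonic or intronic indels (percent, y axis), with 1 panel per library and n in each legend. In each library both classes peak in the top bin, and the exonic line lies above the intronic one between 0.1 and 0.2.

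Genotypes were mostly the same where an indel had 20 reads or more in all 3 libraries. Of 173 such exonic indels 171 had the same genotype in all 3 (98.8%, 95% interval 95.9 to 99.9), as had 472 of 506 intronic ones (93.3%, 90.7 to 95.3). The median spread of the allele fraction over the 3 libraries was 0.0356 in exons and 0.0556 in introns. Neither difference between the classes was tested. Among exonic indels of this depth in any pair of lists, 3 had a genotype that differed. A 4-base insertion at chr2:84577283-84577283 had 62 of 62 reads in parental, 65 of 65 in Y positive and 55 of 66 in Y negative, where a second alternative allele was called. A 1-base deletion at chr5:150870205-150870205 had 27 of 31, 21 of 22 and 28 of 28 reads, heterozygous in parental alone. An 8-base insertion at chr11:40549662-40549662 had 13 of 21, 18 of 18 and 20 of 21 reads, with 2 alternative alleles called in parental.

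Few ncRNA indels differed in allele fraction between libraries. Reference and alternative reads were compared by two-sided Fisher exact test at indels with 1 alternative allele and at least 20 reads in both libraries. Adjustment was over all sites of a pair. Indels with more than 1 alternative allele in either library were not tested. Between Y negative and Y positive 2 of 751 ncRNA indels passed 0.05, beside 0.794% of all 2645 sites tested. Between Y positive and parental 5 of 774 passed, beside 0.874% of 2745. Between Y negative and parental 0 of 745 passed, beside 0.302% of 2651. There an unadjusted p under 0.05 was found for 34 of the 745 and for 145 of all 2651 sites. The ncRNA shares, 0.266%, 0.646% and 0%, lay below these backgrounds. The pairs share libraries and are not independent. The 6 indels that passed in any pair were all intronic deletions, while 0 of the 182 to 191 exonic indels tested per pair passed. An unadjusted p under 0.05 was found for 9 to 12 exonic indels per pair, beside 145 to 171 of the 2645 to 2745 sites in all.

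**Figure D4:**
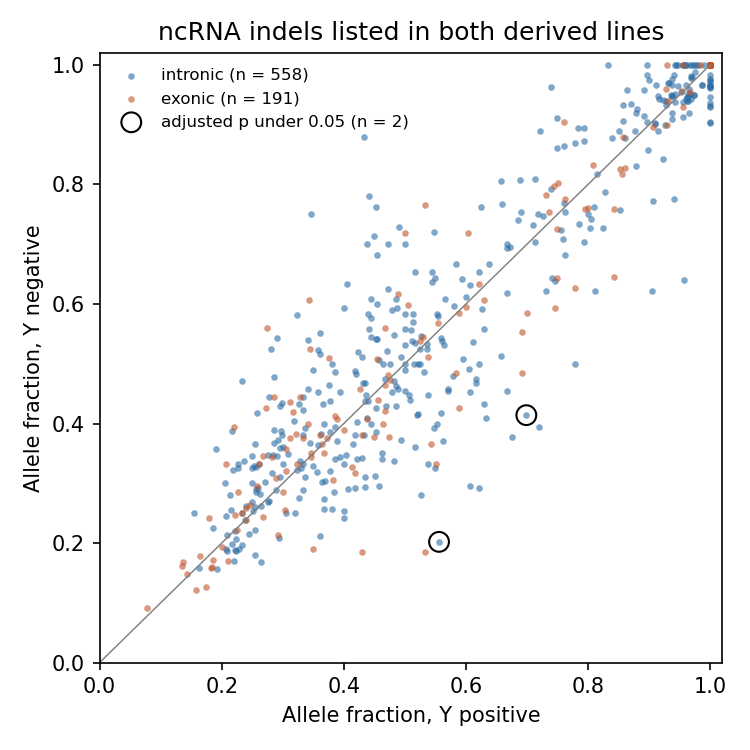
Allele fraction in Y negative (y axis) against Y positive (x axis) for ncRNA indels with 1 alternative allele and at least 20 reads in both libraries, exonic (n = 191) and intronic (n = 558), with the line of equality. Points follow the line, and rings mark the 2 indels past the threshold, both higher in Y positive.

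The clearest difference was a 1-base T deletion at chr1:183682765-183682765, in an intron of ENSMUST00000097446. It was carried by 20 of 93 parental reads (0.215, exact 95% interval 0.137 to 0.312), 55 of 99 Y positive reads (0.556, 0.452 to 0.655) and 22 of 109 Y negative reads (0.202, 0.131 to 0.289). The Y positive library was thus high and the other two near 0.2 (adjusted exact p = 5.29e-05 against Y negative and 0.000464 against parental). At chr8:13579971-13579971 a G deletion was carried by 72 of 103 Y positive and 41 of 99 Y negative reads (adjusted exact p = 0.0111), and the parental list did not hold it. At chr6:122411078-122411078 an A deletion was carried by 35 of 146 parental and 79 of 173 Y positive reads (adjusted exact p = 0.0116), and the Y negative list did not hold it. Another A deletion lay 23 bases away, with 35 of 96 reads in parental, 29 of 123 in Y positive and 25 of 74 in Y negative. Y positive was the lowest of the 3 there.

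Y positive had few or no reference reads at 2 single-base deletions. The G deletion at chr13:67923991-67923991 had 34 of 61 reads in parental, 48 of 51 in Y positive and 31 of 40 in Y negative (adjusted exact p = 0.000753 between the first pair). The C deletion at chr17:28297644-28297644 had 12 of 26, 25 of 25 and 4 of 11 reads (adjusted exact p = 0.00231). Both were called homozygous in Y positive and heterozygous in the others. The second has too few reads to be tested at a minimum of 30.

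The 7-base deletion of the first sequence set, at chr11:3057826-3057832, went the other way. It was carried by 99 of 103 parental reads, 54 of 69 Y positive reads and 94 of 105 Y negative reads (adjusted exact p = 0.0408 between parental and Y positive). The adjusted exact p was 0.0534 with a minimum of 10 reads and 0.0569 when single A or T indels were left out of the table. The 4 neighbours printed with it showed the same order. The 8-base deletion just after it had fractions of 0.962, 0.794 and 0.894 in parental, Y positive and Y negative. The G insertion 40 bases before it had 0.958, 0.750 and 0.861. The A deletion 109 bases before had 1, 0.760 and 0.865, and the 12-base insertion 123 bases before had 1, 0.739 and 0.792. All 5 were called homozygous in parental and heterozygous in both derived lines. They lie close enough to share reads and are not 5 separate observations.

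The next indels by p did not pass. A C deletion at chr17:50308558-50308558 stood high in Y negative, with 7 of 20 reads in parental, 13 of 30 in Y positive and 22 of 25 in Y negative (adjusted exact p = 0.0705 against Y positive and 0.0755 against parental). An A deletion at chr8:42104291-42104291 had 27 of 39, 23 of 52 and 39 of 50 reads (adjusted exact p = 0.0632 between the derived lines). Among exonic indels the smallest p was at an insertion of G at chr4:3174631-3174631, with 122 of 264, 85 of 206 and 88 of 268 reads (adjusted exact p = 0.259 between parental and Y negative).

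Some groups of linked transcripts held far more indels than others. The counts were not scaled to the length or the depth of a group. The largest group, of 11 linked transcripts including ENSMUST00000131021, held 173 indels within 59.6 kb of chromosome 11 (positions 3033423 to 3092983). Of these, 2 were exonic, 90 were insertions and 86 were in all 3 lists. Its indels with at least 20 reads had median allele fractions of 0.946, 0.928 and 0.942 in parental, Y positive and Y negative, near 1 but short of it. Depth was extreme at some of its sites only: 57 of the 173 indels reached 20 reads, and the median highest depth was 10 reads. Those in all 3 lists had median depths of 26.5, 24 and 26.5 reads in parental, Y positive and Y negative. The C insertion at chr11:3088888-3088888 was carried by 5179 of 5447 reads in parental, 4821 of 5063 in Y positive and 5557 of 5817 in Y negative. The 86-base insertion at chr11:3037138-3037138 had 350 of 362, 332 of 343 and 367 of 389 reads. Its fractions, 0.967, 0.968 and 0.943, hardly differed, yet it was called homozygous in parental and Y positive and heterozygous in Y negative. Over positions 3025914 to 3092983, a window drawn after the values were seen, 185 ncRNA indels included 16 of the 23 with 500 or more reads. They took 28.0%, 26.5% and 29.4% of all reads at ncRNA indels of the parental, Y positive and Y negative lists. Median depth at ncRNA indels in all 3 lists was 30, 31 and 29 reads.

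The other groups with many indels differed from it and from each other. A group on chromosome 11 from 40516363 to 40542767 (ENSMUST00000125011) held 31 indels, 25 of them in all 3 lists, with a median allele fraction of 1 in every library. A group on chromosome 1 from 85009363 to 85235897 (ENSMUST00000093501) also held 31. All its deep entries were heterozygous, at median fractions of 0.248, 0.224 and 0.223. A group on chromosome 4 from 146549831 to 146837923 (ENSMUST00000125785) held 32 indels with medians of 0.245, 0.383 and 0.209 over 4 to 6 entries. The 31 indels from 90177984 to 90203255 on chromosome 1 (ENSMUST00000148138) never exceeded 7 reads, and 0 were in all 3 lists.

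Homozygosity varied between chromosomes. Among indels with at least 20 reads in all 3 libraries, homozygous in all 3 were 72.6% of 62 on chromosome 3 (95% interval 59.8 to 83.1), 72.5% of 51 on chromosome 8 and 55.8% of 86 on chromosome 2. On chromosome 5 they were 3.45% of 29 (0.0873 to 17.8) and on chromosome 1 11.3% of 53 (4.27 to 23). On chromosomes 16, 17 and 19 they were 0 of 11, 0 of 18 and 0 of 6, which allows up to 28.5%, 18.5% and 45.9%. Indels of 1 chromosome can lie in 1 inherited stretch, so these intervals cover counting error only, and no test was made. The share of all listed indels that was ncRNA ran from 8.63% on chromosome 12 to 38.6% on chromosome 11.

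**Figure D5:**
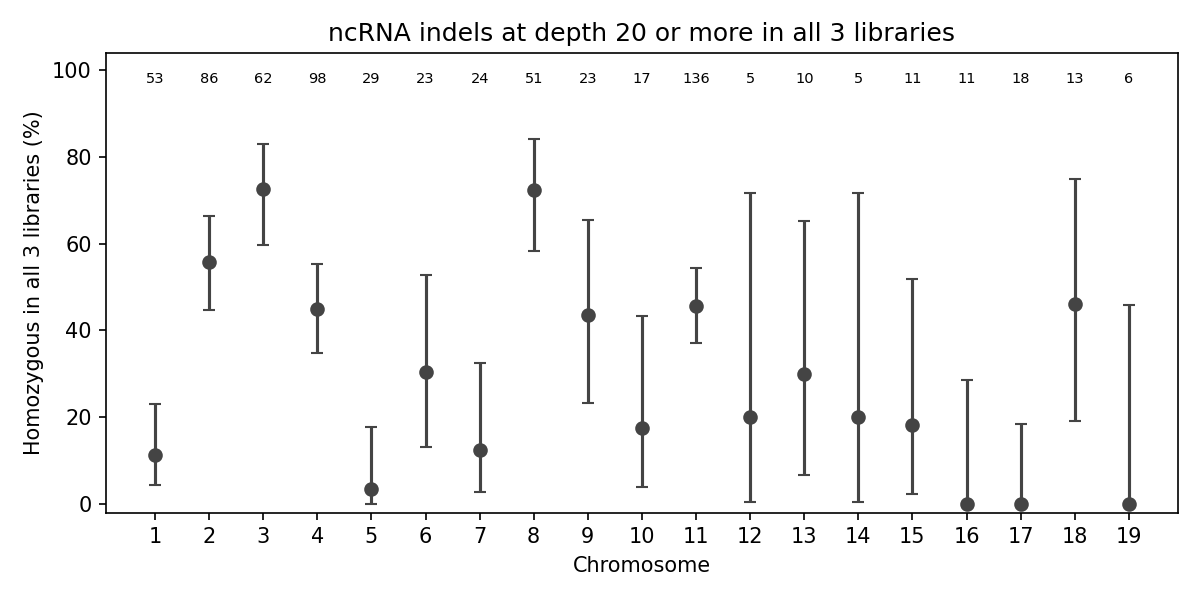
Share of ncRNA indels called homozygous in all 3 libraries (percent, y axis) by chromosome (x axis), among indels with at least 20 reads in every library; points are shares, lines exact 95% binomial intervals and the numerals along the upper edge the number of indels. Chromosomes 3 and 8 stand at 72.6% and 72.5%, chromosome 5 at 3.45%, and 16, 17 and 19 at 0.

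The 5 homozygous exonic indels of the second sequence set had no reference read in any library. The TA deletion at chr8:97360279-97360280 had 228 of 228, 255 of 255 and 249 of 249 reads in parental, Y positive and Y negative. The A insertion at chr8:99951936-99951936 had 197 of 197, 234 of 234 and 209 of 209. The other three had 152 to 221 reads per library, all with the indel. The deepest homozygous exonic indel, a G insertion at chr11:3050286-3050286 in the crowded region of chromosome 11, had 1067 of 1110, 1018 of 1053 and 1215 of 1274 reads, so it kept reference reads in every library.

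Among the ncRNA indels, 12 were annotated at a splice site. For the 10 that were also exonic, the label does not say whether that site belongs to a non-coding transcript. At 8 of the 12 every read of every library carried the indel. Among these 8 was a C deletion at chr1:158232554-158232554 with 173 of 173, 119 of 119 and 168 of 168 reads. A 1-base insertion at chr6:142190591-142190591 had 134 of 134, 98 of 98 and 107 of 107. No depth minimum was set for these 8, and some were shallow. The C insertion at chr2:30093299-30093299 had 4 of 4, 4 of 4 and 11 of 11 reads. Of the pair listed as splicing alone, the 2-base insertion at chr3:93455535-93455535 was homozygous in all 3 (47 of 47, 52 of 52 and 27 of 27 reads). The 1-base deletion at chr10:117031687-117031687 was heterozygous in all 3 (44 of 107, 43 of 105 and 39 of 115). Another 2 splice-site indels were in 1 list alone: a 25-base insertion at chr2:41843532-41843532 with 5 of 29 Y negative reads, and a 4-base insertion at chr2:130248442-130248442 with 4 of 21 parental reads.

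Long indels were in part common to the libraries and in part private to one. The 84-base deletion at chr8:13144612-13144695 had 56 of 56, 43 of 43 and 43 of 43 reads, and the 40-base deletion at chr8:13098484-13098523 had 92 of 92, 89 of 89 and 81 of 81. Both were homozygous in all 3 libraries. The other pair was in the Y negative list alone. The 74-base insertion at chr10:115663421-115663421 had 32 of 32 reads, called homozygous, and a 13-base insertion 4 bases further on was listed with 0 reads. The 43-base insertion at chr2:69587159-69587159 had 39 of 144 reads. An 18-base insertion 4 bases before it, also in Y negative alone and annotated as splicing, not as ncRNA, had 51 of 156.

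Private indels of good depth were mostly heterozygous single-base changes. At least 20 reads and an allele fraction of at least 0.25 were found for 135 private indels of Y positive (26 exonic), 130 of Y negative (17 exonic) and 130 of the parental list (25 exonic). Of these 118, 111 and 111 were heterozygous, and 97, 85 and 95 were changes of 1 base. Both traits were also the more frequent ones among all ncRNA indels at 20 reads or more. Single-base changes were 61.9% of exonic and 60.5% of intronic ones there, and heterozygous entries 60.9% to 65.5% of each class and library. Whether private indels differ from these shares was not tested. The deepest in parental was an exonic T deletion at chr5:138161838-138161838 with 34 of 115 reads. The deepest in Y positive was an intronic T insertion at chr1:141367350-141367350 with 39 of 149 reads. In Y negative, after the 43-base insertion, it was an exonic T deletion at chr5:99361009-99361009 with 28 of 106 reads. Of the 15 private indels named by this rule, the 5 deepest of each library, the highest fraction was 0.432, at a T deletion of chr3:151408640-151408640 in parental (38 of 88 reads).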

How the data were processed

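The deposited lists gave each indel of 1 library with its annotation, genotype, the authors' quality score (not used as a filter here) and the authors' counts of reads: the depth and the reads of each allele. BWA, Picard and the builds mm9 and mm10 are named in the submitters' processing notes; the caller is not given in the sources used here. Positions run past the last GRCm38 gene on 9 autosomes (on chromosome 1 to 197068016 against 195291439), so mm9 was taken. All entries had passed the caller's filter, and allele reads summed to the depth in each. No transcript identifier matched the RefSeq gene table, so no gene is named. Members, lists and comparisons were chosen with earlier results of these data known. Named indels followed a rule: those past the threshold and the 5 smallest p-values per pair, the largest transcript groups, the deepest homozygous, the longest, the deepest private, the splice-site ones and those with differing genotypes. Of these the text gives values for a part; any other indel named was chosen after its values were seen.

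The main depth minimum was 20 reads, with 10, 30 and none as alternatives. Shares were compared with two-sided Fisher exact tests, Benjamini-Hochberg adjusted over 29 tests. Allele fractions were compared between libraries for each indel with 1 alternative allele. This was done over the whole table, sex chromosomes included, and adjusted within each pair. Intervals are exact Clopper-Pearson at 95%, with Newcombe's for differences; they cover counting error only, as PCR copies are not independent molecules. Computation used Python 3.11.15, pandas 2.3.3 and scipy 1.17.1, and the per-indel test was checked on simulated data. The simulated reads were drawn independently, so that check does not cover PCR copies.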

Additional observations from a re-analysis of the deposited data

How the results depend on the processing

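Over 40 results and 176 alternatives, 128 stayed the same. For the tested shares this means the same direction and side of the threshold. Another 6 moved, all among results with no p-value of their own: the shares in all 3 lists and the counts of indels that passed. The cause was not tested for the alternatives that changed. They follow, those of tested shares as differences in percentage points. Of these, 1 call was lost (deletions in exons against introns of ncRNA, without a depth minimum), 22 were gained and 19 turned direction, 5 of them passing the other way, all without a depth minimum. For exonic minus intronic ncRNA indels, no depth minimum gave -3.54 for deletions, 13.6 for single-base changes, 6.74 for single A or T, -2.73 for 5 or more bases, -19.2 for 1 list alone and -7.38, -7.34 and -9.86 for homozygous ones in parental, Y positive and Y negative. A minimum of 30 reads gave -1.92 for single-base changes, -9.55 for single A or T and -0.514, -1.68 and -0.406 for homozygous ones. A minimum of 10 gave -6.87 for 1 list alone and -0.112 for homozygous ones in Y positive. With 1 indel per annotation string, 5 or more bases came to 3.63 and homozygous ones to 14.4, 11.2 and 11.5. With 1 per transcript group, an alternative chosen after seeing the data, they came to 3.89, 17.2, 13 and 12.7, and 1 list alone to -8.58. Leaving out the large chromosome 11 group, also chosen afterwards, changed no call.

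For ncRNA introns minus other introns, no depth minimum gave -2.56 for deletions, -2.27 for single-base changes, -2.60 for single A or T, -1.59 for all 3 lists and 5.61, 5.58 and 4.61 for homozygous ones. Minimums of 10 and 30 reads gave -0.652 and -0.873 for single-base changes, and 30 reads gave 6.96 and 7.57 for homozygous ones in parental and Y negative. Genotypes taken from the reads gave 6.01 for homozygous ones in Y negative. Against 3' untranslated regions, homozygous exonic indels in Y positive differed by -3.13 at 10 reads and -0.293 at 30. The share of ncRNA in the list, Y negative minus Y positive, was 0.00627 at 10 reads and -1.96 without a minimum, and Y positive minus parental 0.373 at 30 reads and 1.21 without a minimum.

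The share in all 3 lists was 37.6% of exonic and 20.9% of intronic indels without a depth minimum, and 52.4% of intronic ones at 30 reads; matched on position alone it was 51.4%. Without single A or T indels, 1 ncRNA indel passed between Y negative and Y positive and 2 between Y positive and parental, 1 and 2 of which had passed before. No paired analysis was possible because each genotype has 1 library. The lists hold no reads for the indels they leave out, so depth there is unknown.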
